A study of Drosophila melanogaster with 6 samples.

Results

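The 34 genes described here encode the machinery by which neurons release transmitter, together with enzymes, transporters and markers that define neurons in Drosophila melanogaster. They were chosen by name, as presynaptic and neuronal genes, out of 16942 genes with counts, and all 34 had reads in every library. Snap25 was left out because its counts are shared with unrelated genes. The members are grouped by role into vesicle fusion (6 genes), calcium sensing and entry (5), the active zone (6), vesicle-associated proteins (4), vesicle recycling (4), transmitter identity (6) and neuron identity (3).

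At a synapse, vesicles loaded with transmitter dock at the active zone, are primed by SNARE proteins and their partners, and fuse when calcium enters through voltage-gated channels; the membrane is then retrieved and the vesicle refilled. In flies, acetylcholine is the main excitatory transmitter of the central nervous system and is used by sensory neurons, GABA is the main inhibitory transmitter, and glutamate is released at the neuromuscular junction. The brain lies in the head and the ventral nerve cord, which holds the cell bodies of the motor neurons, lies in the thorax, so a head-thorax sample contains the central nervous system and an abdomen sample contains peripheral neurons and axons.

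All flies were wild-type males of the Dahomey strain labelled as exposed to rivals, and no sample without rivals was analysed here. Per the labels, males were stored 10 per vial after eclosion, placed singly at an age of 1 day for 5 days and then snap frozen. The sources do not say where in this sequence the 2 or 26 h with rivals fell. RNA came from pools of 40 abdomens or 40 head-thorax parts, giving 3 pools, abdomen after 2 h with rivals, head-thorax after 2 h and head-thorax after 26 h. Each pool was sequenced as 2 technical split libraries, numbered 1 and 2, from different lanes of 1 flow cell.

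There is 1 pool per group, so no difference between groups has a biological replicate check, and every SD (n = 2) and p-value below measures only the spread between split libraries. Libraries held 21070598 to 34217543 counts. The body part labels matched marker genes: 10 eye genes summed to 171 to 177 CPM in abdomen and 12286 to 12323 CPM in 2 h head-thorax, and 11 testis genes to 5456.5 to 5565 and 8.26 to 13.2 CPM. CPM is the count scaled to library size, with sizes adjusted by the trimmed mean of M values (TMM). The 2 comparisons below share the 2 h head-thorax pool.

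Together the 34 genes took 0.118% of all counts in both abdomen libraries, 0.643% and 0.647% in 2 h head-thorax, and 0.662% and 0.657% at 26 h. Per kilobase of annotated exons, the highest levels in 2 h head-thorax were those of nrv3, a neuronal beta subunit of the sodium pump (121 CPM per kb), the SNARE regulator cpx (90.4) and the vesicle SNARE nSyb (90.2). The lowest were those of the scaffold gene Liprin-alpha (5.22 CPM per kb), the neuronal RNA-binding protein gene elav (5.51) and the active zone gene Rim (5.58). In abdomen nSyb stood at 0.895 CPM per kb and ranked 24 of 34, against 3 in head-thorax. If reads were counted over whole gene spans, a pattern described below, they include introns, which the exonic length leaves out. These ranks also rest on counts that can include genes nested in a member, described below. Less those counts cpx stood at 82.0 CPM per kb, behind nSyb, ChAT was lowest at 4.40 CPM per kb, and nSyb ranked 21 in abdomen. The ChAT value is an effect of subtracting VAChT, whose count was 79.4% of the 2 h head-thorax count of ChAT. These 2 genes share 606 exonic bases, and as deposited ChAT ranked 16 at 21.6 CPM per kb.

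**Figure D1:**
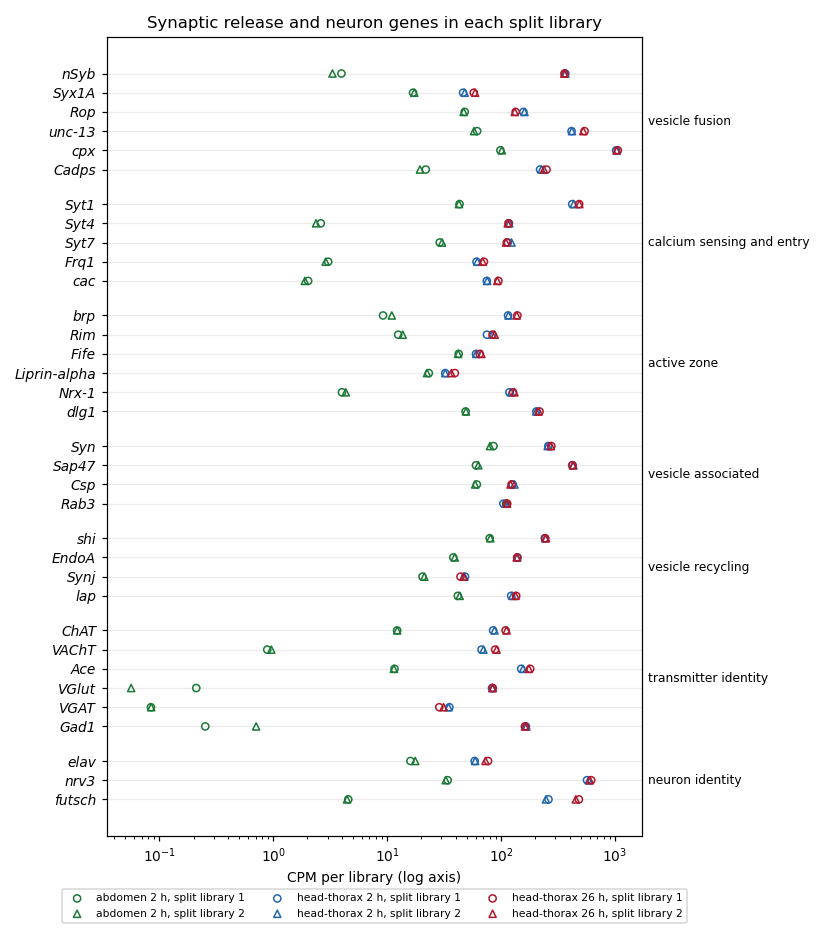
Level of each of the 34 genes in every split library, in CPM on a log axis, grouped by role; circles are split library 1 and triangles split library 2. The abdomen libraries (green) lie to the left of the head-thorax libraries except for Rab3, and VGlut, VGAT, Gad1 and VAChT lie below 1 CPM in abdomen.

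Abdomen was first compared with the head-thorax pool of the same time. Most of these genes had far fewer reads in abdomen: 31 of 34 were lower, 0 were higher and 3 were not called, by edgeR's quasi-likelihood test with a 2-fold minimum and an adjusted p (Benjamini-Hochberg) below 0.05. Over all 14694 genes tested, 21.7% were lower and 35.6% higher by the same rule. The median log2 ratio of the members was −2.81, or 7.02-fold lower, against a median of 0.06 over all genes tested. In these bulk samples, fewer neurons and less RNA per neuron cannot be told apart. The 3 genes not called were Rab3, Fife and Liprin-alpha. No member was higher at an unadjusted p under 0.05 (0 of 34), and the Wald test of DESeq2 called 0 higher and 30 lower. With no fold limit 33 were lower, where 43.6% of all genes were lower and 46.8% higher.

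The counts of several of these genes hold reads of genes nested inside them. In 99.8% to 99.9% of pairs with at least 20 counts in the nested gene, the count of the host was no smaller, the pattern that counting over whole gene spans would give. Of the 34 members, 17 overlap no annotated gene and 17 do, on the annotation of BDGP6.54. For 8 members, nested genes held over 5% of the abdomen count. The counts of genes lying wholly inside a member were therefore also subtracted. Genes that contain a member or overlap its edge were not subtracted, so the result is not a lower limit to a member's own reads. Where a nested gene shares exons with its host, the subtraction may also remove reads of the host.

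Rab3, the small GTPase of synaptic vesicles, shows the effect most fully. Its deposited level was 111 and 112 CPM in the abdomen libraries, 105 and 110 CPM in 2 h head-thorax, and 113 and 113 CPM at 26 h, so the body parts nearly coincided. Inside Rab3, which lies on 2R from 10721335 to 10729203 on the minus strand, the carbonic anhydrase gene CAH13 lies on the opposite strand with no exonic base in common. CAH13 had 6328 counts in abdomen, 96.1% of the 6587 of Rab3, and 109 in 2 h head-thorax, 1.90% of the 5750 of Rab3. Less the nested counts, Rab3 stood at 4.32 ± 0.497 CPM in abdomen (SD, n = 2) and 105 CPM in head-thorax, and its log2 ratio moved from 0.06 ± 0.03 (SE) to −4.58.

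Fife, an active zone scaffold related to Piccolo and Rim, had 42.5 and 42.0 CPM in abdomen, 60.4 and 60.6 CPM in 2 h head-thorax, and 65.0 and 67.3 CPM at 26 h. CG33233 and CG33234, nested in Fife, held 69.0% and 25.8% of its abdomen count, and only 3.23% and 2.21% of its head-thorax count at 2 h. Without them 128 abdomen counts were left and the log2 ratio moved from −0.52 to −4.72. A further 444 abdomen counts were shared by Snup and CG42304, which overlap the edge of Fife by 41 exonic bases and have equal counts, so Fife may hold still fewer reads of its own.

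**Figure D2:**
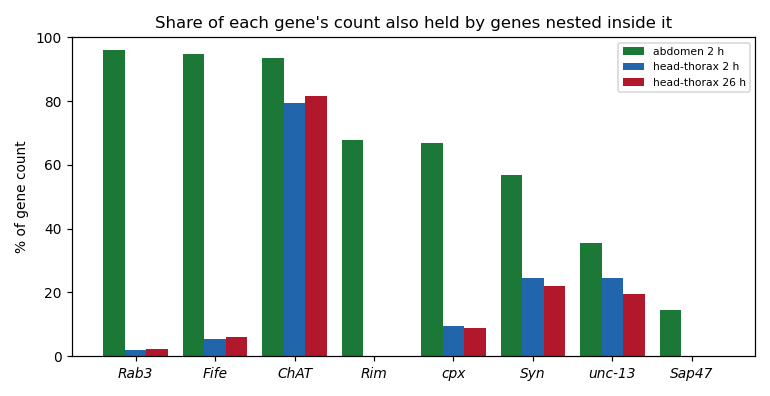
Percentage of each gene's summed count that is also held by genes nested inside it, in the 3 pools, for the 8 genes where this share passes 5% in abdomen. Rab3, Fife, Rim and cpx run from 66.9% to 96.1% in abdomen and from 0.0707% to 9.38% in 2 h head-thorax, whereas ChAT has a high share in every pool, held mostly by CG34283 in abdomen and by VAChT in head-thorax.

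With nested counts removed from the members, 33 of 34 were lower in abdomen and their median log2 ratio was −3.61, or 12.2-fold lower. In that fit 21.8% of all genes were lower, but genes other than the members kept their deposited counts, so the 2 shares are not alike. Over the 17 members that overlap no other gene, 16 were lower and the median was −3.45. Only Liprin-alpha then remained short of 2-fold. This scaffold gene of the active zone, which overlaps no other gene, had 23.2 and 22.4 CPM in abdomen against 32.4 and 32.4 CPM in 2 h head-thorax, a log2 ratio of −0.51 ± 0.06 (SE).

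**Figure D3:**
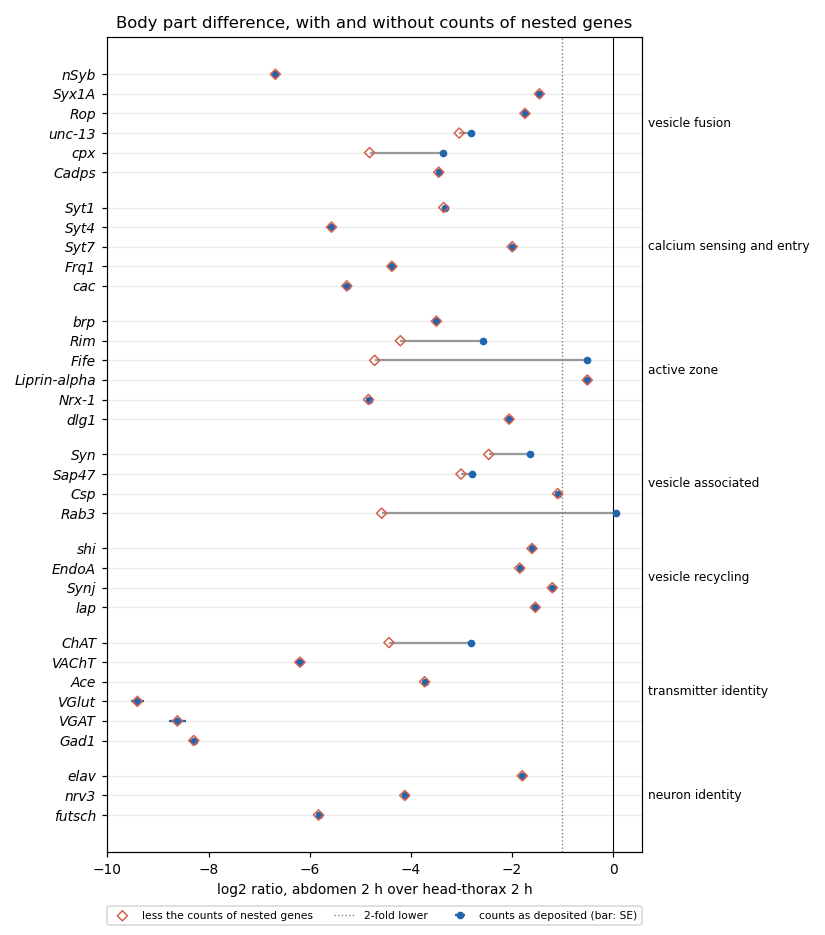
log2 ratio of abdomen over head-thorax at 2 h for each gene, from the deposited counts (filled circles, bars are SE) and after subtraction of nested genes' counts (open diamonds); the dotted line marks 2-fold lower. Rab3 moves from 0.06 to −4.58 and Fife from −0.52 to −4.72, while genes without nested neighbours keep their place.

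Among the vesicle fusion genes all 6 were lower in abdomen. nSyb, the neuronal synaptobrevin on the vesicle, had 3.97 and 3.32 CPM in abdomen against 367 and 368 CPM in 2 h head-thorax. The abdomen libraries lie far below the head-thorax ones, with a log2 ratio of −6.68 ± 0.05 (SE), or 102-fold. Its paralogue Syb, which is not restricted to neurons, had 78.2 ± 2.65 CPM in abdomen (SD, n = 2) against 59.3 ± 0.754 CPM in head-thorax (SD, n = 2), a log2 ratio of 0.39. Syb overlaps another gene. cpx, complexin, which clamps the assembled SNARE complex, was at 98.7 and 102 CPM in abdomen against 1025 and 1038 CPM in 2 h head-thorax. The neprilysin-like gene Nepl11, nested in cpx, held 66.9% of the abdomen count and 9.38% of the head-thorax count, and without it the log2 ratio of cpx moved from −3.36 to −4.82.

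Cadps, which acts in dense-core vesicle release, was 10.9-fold lower. unc-13, the priming factor, was 7.01-fold lower, or 8.23-fold less the nested CR43361, asRNA:CR43425 and asRNA:CR44029. These 3 genes overlap exons of unc-13 on the opposite strand, so their counts may be reads of unc-13 itself. The smallest differences were those of Rop, the Sec1/Munc18 partner of syntaxin, at 3.35-fold, and Syx1A, the plasma membrane SNARE, at 2.75-fold. Syx1A lies wholly inside eIF4EHP on the same strand and shares 447 exonic bases with it, so reads of eIF4EHP, which had 3534 abdomen counts against 1012 for Syx1A, cannot be separated from it.

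All 5 genes of calcium sensing and entry were lower in abdomen. Syt4, a synaptotagmin of neuronal vesicles, was at 2.62 and 2.38 CPM in abdomen against 117 and 118 CPM in 2 h head-thorax (47.5-fold). cac, the pore-forming subunit of the presynaptic calcium channel, was at 2.03 and 1.90 CPM in abdomen against 75.0 and 75.6 CPM in 2 h head-thorax (38.5-fold). Frq1, a frequenin calcium sensor, was 20.8-fold lower, and its paralogue Frq2 was lower by 2.26 on the log2 scale. Syt1, the sensor for fast release, was 9.96-fold lower, and Syt7, the least biased of the group, was 3.98-fold lower.

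In the active zone group 4 of 6 genes passed, and 5 of 6 once nested counts were removed. brp, the Bruchpilot protein of the T-bar, was at 9.21 and 10.99 CPM in abdomen against 115.3 and 116.3 CPM in 2 h head-thorax, an 11.3-fold difference. Nrx-1, the presynaptic adhesion molecule neurexin, was 28.5-fold lower. Rim, a tether between vesicles and calcium channels, moved from 5.98-fold to 18.5-fold lower when CG12347, which held 66.9% of its abdomen count and 2 of its 4244 head-thorax counts, was removed with CG43445. dlg1, the Discs large scaffold that also serves epithelial junctions, was 4.16-fold lower.

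Of the 4 vesicle-associated genes Sap47, Syn and Csp were lower. Synapsin, encoded by Syn, was 3.13-fold lower, or 5.50-fold less the counts of Timp, a metalloproteinase inhibitor gene nested in it. Timp shares 249 exonic bases with Syn on the opposite strand and held 56.9% of its abdomen count. Sap47 was 6.88-fold lower and 8.04-fold less the nested CG31088. Csp, the cysteine string protein chaperone, was 2.14-fold lower, and fell short of 2-fold with DESeq2 size factors, with raw library totals and by DESeq2's Wald test.

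All 4 vesicle recycling genes were lower, by narrower margins. shi, the dynamin that severs vesicles, was 3.04-fold lower and EndoA (endophilin) lower by 1.85 on the log2 scale. Synj (synaptojanin) was 2.30-fold lower and lap, the AP180 clathrin adaptor, 2.90-fold. None of these 4 genes overlaps another gene. Their log2 ratios ran from −1.85 to −1.20, whereas those of the transmitter genes ran from −9.41 to −2.81.

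All 6 genes of transmitter identity were lower, with a median log2 ratio of −7.24. VGlut, the vesicular glutamate transporter, had 5 and 2 counts in the abdomen libraries, at 0.211 and 0.0567 CPM, and 2664 and 1840 counts in 2 h head-thorax, at 83.4 and 84.0 CPM. The head-thorax to abdomen ratio of pooled CPM was 704, with an exact 95% counting interval from 342 to 1753. With so few counts 1 library decides the value: the fitted log2 ratio of −9.41 became −10.42 without abdomen library 1 and −8.59 without abdomen library 2. VGAT, the vesicular GABA transporter, had 2 and 3 counts in abdomen and 1125 and 759 in 2 h head-thorax, a ratio of 412 (176 to 1272). Gad1, which makes GABA, had 6 and 25 counts in abdomen and 5282 and 3667 in 2 h head-thorax, a ratio of 316 (223 to 465). The abdomen libraries of Gad1 differed 2.81-fold, which did not pass the exact binomial test (adjusted p = 0.288). The fitted log2 ratio of Gad1 was −8.29, and −9.32 without abdomen library 2. Both VGlut and Gad1 border another gene that is read in abdomen, CG18641 with 767 counts and CG14989 with 417, so their few abdomen counts may include reads of these neighbours. In 2 h head-thorax CG14989 had 9547 counts against 8949 for Gad1, and at 26 h 11120 against 9680, so the head-thorax level of Gad1 may include its reads too. CG18641 had 48 counts in 2 h head-thorax, 1.07% of the count of VGlut.

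Of the cholinergic genes, VAChT, which encodes the vesicular acetylcholine transporter, had 21 and 34 counts in abdomen, at 0.887 and 0.963 CPM, and 67.4 and 70.1 CPM in 2 h head-thorax. Its ratio was 73.4, with a counting interval from 56.3 to 97.7 that lies wholly below those of VGlut, VGAT and Gad1. These intervals cover counting error only, and the difference between genes was given no test of its own. Ace, acetylcholinesterase, which breaks the transmitter down, was 13.2-fold lower and overlaps no other gene.

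VAChT and ChAT, choline acetyltransferase, form the cholinergic locus and in BDGP6.54 start at the same base, 18705501 on the plus strand of 3R, with VAChT ending at 18718916 and ChAT at 18732344. They share 606 exonic bases. ChAT had 723 counts in abdomen and 4645 in 2 h head-thorax. In abdomen 569 of its counts (78.7%) were also those of the nested CG34283, which had 0 counts in 2 h head-thorax. In head-thorax at 2 h 3690 (79.4%) were also those of VAChT. Less all nested genes ChAT kept 48 counts in abdomen and stood at 0.812 against 17.6 CPM, so its log2 ratio moved from −2.81 to −4.43, and to −5.62 when only nested genes that share no exonic base were subtracted.

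All 3 neuron identity genes were lower. futsch, the neuronal microtubule-associated protein, was at 4.56 and 4.45 CPM in abdomen against 261 and 248 CPM in 2 h head-thorax (56.6-fold), and nrv3 at 34.1 and 32.7 against 568 and 590 CPM (17.4-fold). elav, a standard marker of all neurons, was at 16.0 and 17.7 CPM in abdomen against 58.7 and 59.3 CPM in 2 h head-thorax, only 3.47-fold lower. It overlaps arg on the opposite strand by 673 exonic bases, and arg had 1481 abdomen counts against 1002 for elav. In 2 h head-thorax arg had 3228 counts against 3175 for elav, and at 26 h 4561 against 4467. The level of elav can therefore be assigned to elav alone in none of the 3 pools.

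Other genes of the same process behaved alike in part. Of 41 further genes of the release machinery 38 were tested, 24 were lower in abdomen and 1 was higher (median log2 ratio −1.51). Among the most abundant, stnA and stnB, which encode the stoned proteins from 1 transcript and have equal counts, were lower by 2.34 on the log2 scale and the kinesin gene unc-104 by 2.90, while clathrin heavy chain, Chc, was at −0.49. The higher gene was Sytbeta (1.89), which overlaps another gene. Of 27 transmitter receptors 26 were tested, 19 were lower and 1 was higher (median −3.21), with nAChRbeta1 at −5.71, Rdl at −4.36, GluClalpha at −3.15 and nAChRalpha4 at −2.69. The higher receptor was GluRIIC (1.29), a glutamate receptor subunit of the muscle side of the neuromuscular junction, at 4.86 CPM in abdomen. Of 14 further neuron markers 13 were tested and 11 were lower (median −2.60), including Appl (−3.61), Rbp9 (−2.60), CaMKII (−2.86) and Lar (−1.51).

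A further list of 28 genes mixed general trafficking genes, paralogues of members and subunits of the sodium pump. Of these 27 were tested and 3 were lower, EndoB, Frq2 (the paralogue of Frq1) and the pump subunit Atpalpha. Syx18 was the 1 gene higher (median of the list −0.53). Markers of cells other than neurons also differed between the body parts. Of 10 glial markers 8 were lower in abdomen, with sums of 502 to 507 CPM in abdomen and 2580 to 2592 CPM in 2 h head-thorax, and alrm at 0 counts in abdomen. All 10 flight muscle markers were lower, as were 9 of 10 eye markers, and all 11 testis and 9 accessory gland markers were higher. Of 9 midgut markers 4 were higher and 1 lower, and of 7 fat body markers tested 1 was higher and 4 lower. The part of these other cells in the ratios of the synaptic genes was not tested.

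The second comparison set the 26 h head-thorax pool against the 2 h pool, which differ in the time spent with rivals. By edgeR's quasi-likelihood test 0 of 34 members were called at 2-fold, where 6.21% of all genes tested were higher and 1.5% lower. With shares this small, 0 of 34 is near the rate over all genes and marks no trait of the members. The Wald test of DESeq2 also called 0, as did edgeR less the members' nested counts (6.2% of all genes higher, other genes as deposited). At an unadjusted p under 0.05, with no fold limit, 21 were higher and 4 lower. Smaller differences were common, with 21 members higher and 3 lower at an adjusted p under 0.05 at any fold, where 19.7% of all genes were higher and 21.3% lower. The median log2 ratio was 0.10, or 1.07-fold, against 0.00 over all genes. The count depended on scaling: with raw library totals 12 members were higher and 12 lower, and the median was 0.0017. Of the 21 members called higher 12 kept that call with raw totals, and 13 kept it in each of the 6 fits that left out 1 library.

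The largest difference was that of futsch. It stood at 261 and 248 CPM in the 2 h libraries and 483 and 454 CPM in the 26 h libraries. The log2 ratio was 0.88 ± 0.03 (SE), or 1.84-fold (adjusted p = 4.7e-48, edgeR), and ran from 0.83 to 0.92 when each library was left out in turn. futsch was also the only member to differ between split libraries by the exact binomial test, at 26 h, where library 1 was 1.06-fold above library 2 (adjusted p = 0.000883), and the 2 h libraries differed 1.06-fold (adjusted p = 0.0513).

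The cholinergic genes were all higher at 26 h at any fold, where 19.7% of all genes tested were higher and 21.3% lower. VAChT went from 67.4 and 70.1 to 88.8 and 91.4 CPM (1.32-fold), ChAT from 85.2 and 87.7 to 110 and 112 CPM (1.28-fold) and Ace from 150 and 156 to 180 and 176 CPM (1.17-fold). Less nested counts, which are mostly those of VAChT, ChAT was higher by 0.22 on the log2 scale. The genes for GABA and glutamate did not follow: VGAT went from 35.2 and 34.6 to 28.7 and 31.3 CPM, 1.16-fold lower, while Gad1 at −0.03 and VGlut at 0.02 did not pass. Among all genes of at least 10 CPM, 63.3% were higher at 8 to 12 kb of exons, the class of Ace. At 4 to 8 kb, the class of VAChT, ChAT and VGlut, 36.01% were higher. At 2 to 4 kb, that of VGAT and Gad1, 14.5% were higher and 39.4% lower. The difference between the transmitter groups was not tested.

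In the active zone group all 6 genes were higher at any fold, from 1.06-fold for dlg1 to 1.19-fold for brp, which went from 115.3 and 116.3 to 139 and 137 CPM. Over all genes tested 19.7% were higher by this rule. Among all genes of at least 10 CPM the share was 36.01% at 4 to 8 kb of exons, the class of Liprin-alpha. It was 63.3% at 8 to 12 kb, the class of dlg1, Nrx-1 and Fife, and 81.4% above 12 kb, that of brp and Rim. Of these 6 calls brp and Liprin-alpha held with raw totals, where dlg1 turned to −0.016, and the same 2 held in every fit without 1 library. Rim went to 0.04 without 2 h library 1. Of the calcium genes cac was higher (log2 ratio 0.32), as were Frq1 (1.14-fold) and Syt1 (1.14-fold), and Syt7 was lower (1.06-fold), a call lost in 3 of the 6 fits without 1 library. Of the fusion genes unc-13 went from 416 and 420 to 542 and 528 CPM (1.28-fold), Syx1A, with the shared eIF4EHP reads, was higher by 1.24-fold and Cadps by 1.10-fold. The call of Cadps was lost with raw totals and without 26 h library 1. Rop went the other way, from 157 and 161 to 134 and 132 CPM (1.19-fold lower), while cpx at 0.02 and nSyb at −0.03 did not pass.

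Of the vesicle-associated genes Syn (1.06-fold) and Rab3 (1.06-fold) were higher, and both turned below 0 with raw totals and lost the call in 3 of 6 fits without 1 library. Sap47 at 0.00 and Csp at −0.07 did not pass. Among the recycling genes lap was higher (1.09-fold), though not with raw totals, and shi, EndoA and Synj, at 0.02, −0.02 and −0.08, did not pass. elav, with the reads it shares with arg, was higher by 1.27-fold. nrv3 was higher by 1.06-fold, and turned to −0.019 with raw totals.

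**Figure D4:**
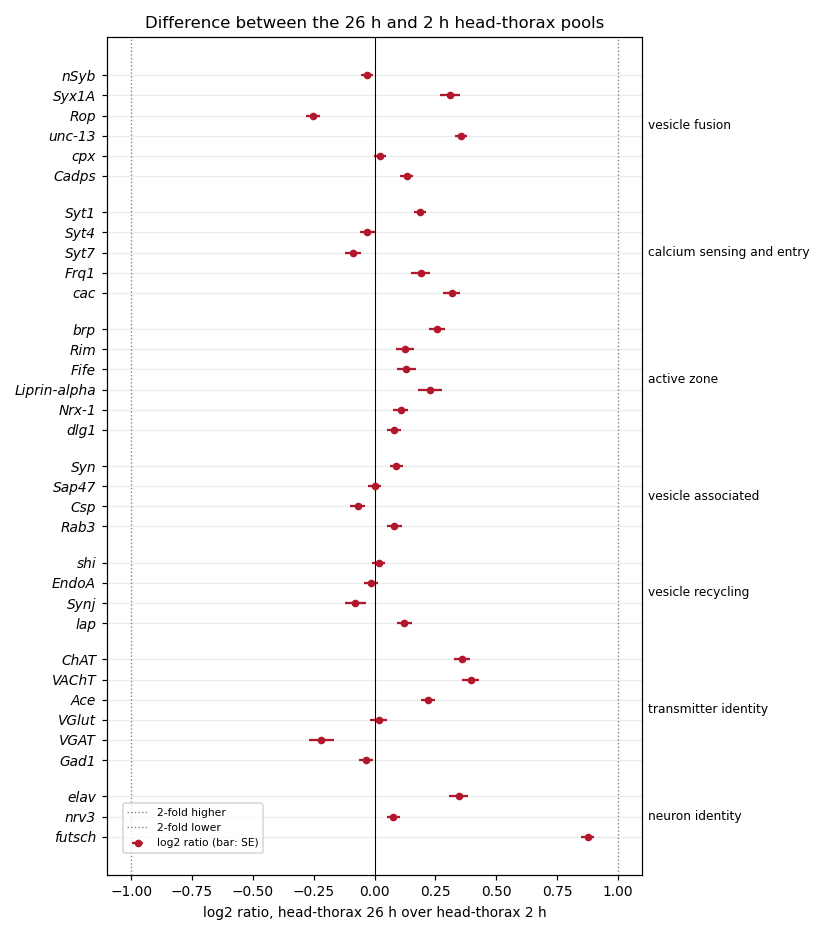
log2 ratio of head-thorax at 26 h over head-thorax at 2 h for each gene (points, bars are SE), grouped by role, with dotted lines at 2-fold. All genes lie inside the 2-fold lines; futsch lies farthest right at 0.88 and Rop farthest left at −0.25.

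The ratios at 26 h moved with gene length. Among members the log2 ratio rose with the log of annotated exonic length (Pearson r = 0.69, Spearman rho = 0.67, across 34 genes of the same libraries, which are not independent replicates). Without futsch and unc-13, the genes farthest from the median length, r was 0.57, and over the 17 members that overlap no gene it was 0.85. Of 7 members of 2 to 4 kb 1 was higher and 3 were lower at any fold, where 14.5% of all such genes of at least 10 CPM were higher and 39.4% lower. Of 16 members of 4 to 8 kb 10 were higher and 0 lower, against 36.01% and 17.8%. Of 7 members of 8 to 12 kb 6 were higher and 0 lower, against 63.3% and 7.91%.

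The trend also ran through all genes of at least 10 CPM in head-thorax (r = 0.25, rho = 0.31, across 6754 genes). Their median log2 ratio was −0.11 for 1831 genes of 1 to 2 kb, −0.08 for 2296 genes of 2 to 4 kb, 0.05 for 1419 genes of 4 to 8 kb, 0.14 for 316 genes of 8 to 12 kb and 0.25 for 140 longer genes. In the longest group 81.4% of genes were higher and 5% lower at 26 h, and all 4 members in it were higher. The members' own medians by these length classes were −0.07, 0.11, 0.13 and 0.31 from 2 to 4 kb upwards.

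Set against the median of all genes of their length class, 20 members lay above and 14 below, with a median difference of 0.04, and 18 of 34 lay within 0.1. futsch was still 0.62 above its class, followed by VAChT (0.35), ChAT (0.31), Syx1A (0.26) and elav (0.20). Ace lay 0.08 above its class. The class of futsch is open above 12 kb, and futsch, at 23.3 kb, is the longest member. The median of that class may therefore not take out its length. ChAT, at 4.01 kb, lies at the lower edge of the class of 4 to 8 kb. At 26 h the VAChT count was 81.4% of the ChAT count, so these 2 values are largely not separate. Reads of Syx1A and elav cannot be told from those of eIF4EHP and arg, which overlap them. Rop (−0.18), VGAT (−0.14) and Rim (−0.13) lay farthest below. Of the other active zone genes dlg1 (−0.06), Nrx-1 (−0.03) and Fife (−0.01) also lay below, brp stood at 0.003 and Liprin-alpha at 0.18. These differences are descriptions with no test.

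**Figure D5:**
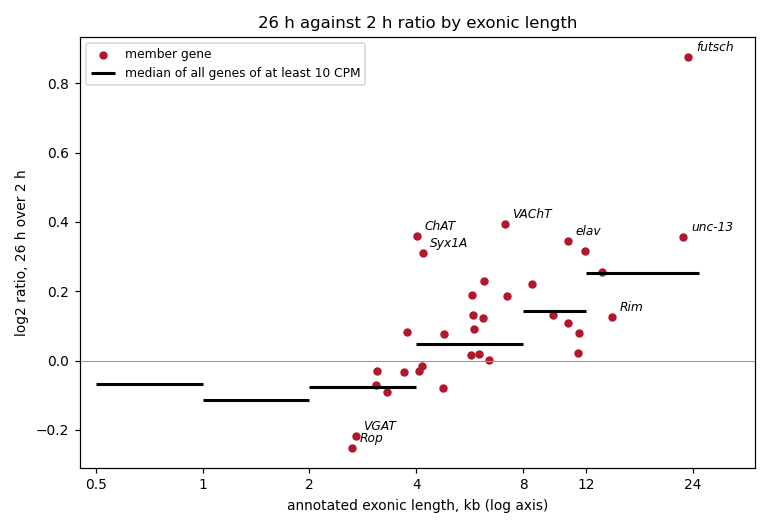
log2 ratio of 26 h over 2 h in head-thorax against annotated exonic length in kb (log axis), for each member (points) and as the median of all genes of at least 10 CPM in each length class (bars). The bars rise from −0.11 at 1 to 2 kb to 0.25 above 12 kb and most members lie near them, with futsch at 0.88.

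Other measures also differed between these pools. Mitochondrial transcripts took 17.3% and 17.9% of counts at 2 h and 21.97% and 21.6% at 26 h. Glial markers summed to 2580 to 2592 CPM at 2 h and 2211 to 2214 CPM at 26 h, with 0 of 10 higher and 4 lower at any fold. Most of that fall lay in 1 gene, Gs2, which went from 1457 to 1132 CPM. At any fold 19.7% of all genes tested were higher and 21.3% lower. Eye markers summed to 12286 to 12323 and 11234 to 11256 CPM, with 1 of 10 higher and 8 lower, and flight muscle markers to 9436 to 9451 and 8375 to 8389 CPM, with 2 of 10 higher and 7 lower. Testis markers summed to 8.26 to 13.2 CPM at 2 h and 23.9 to 27.6 CPM at 26 h, with 8 of 11 higher by 2-fold. Past the same fold were 1 of 9 accessory gland and 1 of 9 midgut markers, both higher, and 1 of 7 fat body markers, which was lower. The part of length and of these measures in the ratios of the synaptic genes was not tested.

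The counts of related lists at 26 h are at any fold, where 19.7% of all genes tested were higher and 21.3% lower. Exonic length was not taken into account for these lists. Of 38 further release genes 12 were higher and 9 lower (median −0.01). Of 26 receptors 5 were higher and 5 lower (median 0.04). Among 13 further neuron markers 8 were higher and 1, tau, lower (median 0.13). In the mixed list of trafficking genes, paralogues and pump subunits 3 of 27 were higher and 12 lower (median −0.09). Of these lists 1 gene passed 2-fold, the nicotinic receptor subunit nAChRbeta3, which fell from 25.3 to 9.23 CPM (log2 ratio −1.46) and overlaps another gene.

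The study asked what splitting a pool into technical libraries does to the measurements. By a two-sided exact binomial test, 0 of 32 members with a summed count of at least 10 differed between the abdomen libraries, 0 of 34 in 2 h head-thorax and 1 of 34, futsch, at 26 h. Over all genes 2.19%, 0.785% and 0.529% differed. At an unadjusted p under 0.05 the counts were 3, 4 and 3. VGlut and VGAT, with 7 and 5 abdomen counts, were too scarce in abdomen to be tested. Among members with at least 100 counts the median difference between split libraries was 1.04-fold for the abdomen pool and 1.02-fold for each head-thorax pool, and the largest were 1.20-fold for brp, 1.11-fold for Rim and 1.10-fold for VGAT.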

How the data were processed

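The authors deposited raw counts of reads, 1 whole number for each FlyBase identifier, with genes at 0 left out; reads were single-end of 50 nt per the series design. For aligner, counter and genome build, the sources used here give no name. Identifiers were named with Ensembl's BDGP6.54 annotation (16735 of 16942 matched), which also gave overlaps and exonic lengths. Pools were compared with edgeR 4.0.16 in R 4.3.3 (TMM, filterByExpr, glmQLFit, all 6 libraries, 3 residual degrees of freedom, prior count 0.125) over 14694 genes, with DESeq2 1.42.0 as an alternative. CPM values were computed from effective library sizes. Split libraries were compared by an exact binomial test, expected shares from library totals. Nested genes' counts were subtracted from the members only, once per overlapping cluster. Total counts per library bound the precision; intervals (exact, 95%) cover counting error only. Both statistical steps were tested on simulated data.

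The members, the 11 other gene lists and the tests were chosen with earlier results of these data known. All 34 members are named; from each other list, up to 4 genes of highest mean CPM and any paralogue of a member, and overlapping genes holding at least 5% of a member's count. Other genes (Sytbeta, GluRIIC, CG43445, EndoB, Atpalpha, Syx18, alrm, tau, nAChRbeta3) were named after their values were seen. Of 177 list genes 175 matched the annotation. The rule with no fold limit was chosen after seeing the data. Alternatives were other scalings, filters, tests, subsets and each library left out. No sequences are shown, as none were used here.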

Additional observations from a re-analysis of the deposited data

How the results depend on the processing

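In abdomen against head-thorax, 31 members were lower in every fit that left out 1 library, and 16 of the 17 that overlap no gene were. The median log2 ratio was −2.67 with DESeq2 size factors or its Wald test, −2.60 with raw totals, −2.79 with only the pools compared, −3.45 over members that overlap no gene, and −3.61 less nested genes or less those sharing no exonic base (the last chosen after seeing the data); leaving out 1 library gave −2.83 to −2.76. Scaling alone moved the median of all genes by 0.14 (DESeq2 size factors) or 0.21 (raw totals) here and by 0.04 or −0.08 at 26 h. Rab3 turned from 0.06 to −4.58 under either subtraction. Csp fell short of 2-fold at −0.95 (DESeq2 size factors and Wald test) and −0.89 (raw totals), as did Synj at −0.99 (raw totals).

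For 26 h against 2 h, the number of members higher at any fold was 12 with raw totals, 0 with the fold tested inside the model, 9 over members that overlap no gene, and 13 of 25 without futsch and members over 10 kb (chosen after seeing the data), with 16 to 21 when 1 library was left out. The number lower was 12 with raw totals, 1 by DESeq2's Wald test, 0 with the fold tested inside the model, and 2 to 4 with 1 library left out. The median was 0.14 with DESeq2 size factors or its Wald test, 0.0017 with raw totals, 0.078 over members that overlap no gene and 0.083 to 0.12 with 1 library left out. Raw totals turned cpx to −0.074, dlg1 to −0.016, Syn to −0.0067, Sap47 to −0.096, Rab3 to −0.015, shi to −0.079 and nrv3 to −0.019. A minimum summed count of 50 made 1 member differ between split libraries in head-thorax at 2 h. The sources do not say whether library numbers mark the same lane across pools. Deviations of same-numbered libraries correlated between −0.0031 and 0.058, which cannot settle this, since counting noise can mask a pairing. With the number as a replicate block 31 members were lower in abdomen and 20 were higher at 26 h. Library sizes without mitochondrial and near-identical genes changed no call, since TMM rescales them.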
